A study of Mus musculus with 16 samples.

Results

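A set of 10 genes of autophagy and mitophagy was followed in mouse quadriceps muscle: Map1lc3a, Map1lc3b and Gabarapl1, which encode ubiquitin-like proteins of the ATG8 family; Ulk1, Becn1, Atg14 and Tfeb, which act in the initiation of autophagy or its transcription; and the cargo receptors Sqstm1, Bnip3 and Bnip3l. They were taken by symbol from a table of RNA-sequencing values, where each of them had 1 entry, and are 10 of 23970 gene symbols. All 10 passed the filter on low values and are among the 11256 genes tested. The muscles came from male C57BL/6NTac mice, 16 weeks old, that had been fed a control diet with 10% of the energy as fat (CON) or a high-fat diet with 60% (HFD) for 10 weeks. They were taken without an exercise test (pre) or 3 h after a treadmill run to exhaustion (post), which gives the groups CON-pre, CON-post, HFD-pre and HFD-post with 4 mice each. Pre and post muscles came from different animals, and a change is a difference between group averages. The post mice were given water but no food after the run, and the methods state an equal fasting period for the pre mice without spelling out whether it covered those 3 h, so that running and any difference in fasting cannot be told apart here. The muscle was sequenced whole, and fewer cells of a type and less RNA per cell cannot be told apart.

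In autophagy a double membrane closes around cytoplasm or an organelle and delivers it to the lysosome for breakdown. The ULK1 kinase complex starts the process, a lipid kinase complex with BECN1 and ATG14 marks the membrane, and ATG8 proteins are attached to the lipid of that membrane, where they hold cargo receptors such as SQSTM1 (p62) for ubiquitin-tagged cargo and BNIP3 and BNIP3L (NIX) for mitochondria. In muscle several of these genes are known to be transcribed more in fasting and wasting under FoxO factors, and TFEB is known to drive lysosomal and autophagy genes. Messenger RNA was measured here and not the flow through the pathway.

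After exercise, averaged over both diets, Gabarapl1, Map1lc3a and Bnip3 rose by 1.41-fold, 1.26-fold and 1.34-fold. The other 7 genes did not pass the test, in which 3.86% of all genes were called. Because the 10 genes were chosen with earlier results of these data known, this share is no test of the set. Bnip3 kept its call in 13 and Map1lc3a in 27 of 28 alternative settings, and neither did with a ribosomal protein score in the fit. Gabarapl1 was the only one of the 10 to rise within a single diet, which it did in CON mice. No gene of the 10 passed the test for an effect of the diet or for a difference in the exercise effect between the diets. The tests were limma fits across all 11256 genes with Benjamini-Hochberg adjusted p under 0.05 as the threshold. Cages and days of sampling are not given in the sources used here. The p-values rest on the spread between mice within groups of 4, with 1 estimate per gene shared by all 4 groups.

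The expression values are FPKM (fragments scaled by transcript length and by the mapped fragments of the library), which allow levels to be compared between genes. Over the 16 libraries, Sqstm1 had the highest mean level, 211 FPKM, at rank 138 of the 23970 symbols. Map1lc3a followed with 93.9 FPKM, then Bnip3 with 60.4, Map1lc3b with 56.5, Gabarapl1 with 31.2, Becn1 with 22.0, Tfeb with 20.4, Ulk1 with 17.2 and Bnip3l with 11.3. Atg14 was the lowest with 2.53 FPKM, at rank 7403. Only 3 neighbours in this order had ranges over the 16 libraries that did not overlap, namely Sqstm1 above Map1lc3a, Ulk1 above Bnip3l and Bnip3l above Atg14. Bnip3 was above Map1lc3b in 9 of the 16 libraries, and their order differed between groups, with means of 49.0 against 52.8 FPKM in HFD-pre and 70.1 against 59.0 FPKM in HFD-post.

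**Figure D1:**
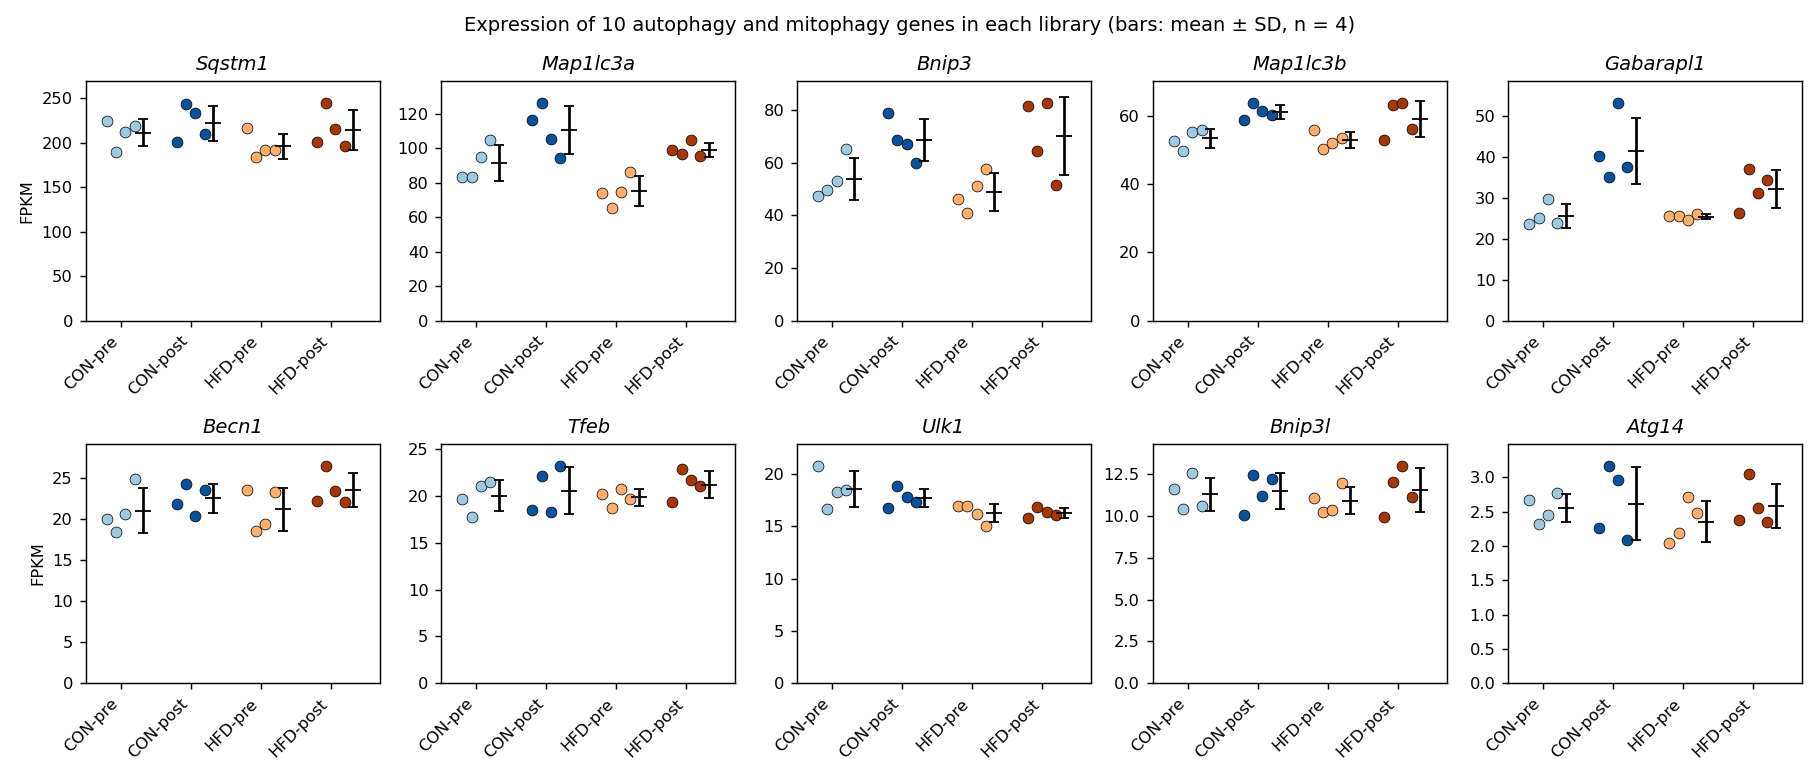
FPKM of the 10 genes in each of the 16 libraries, by group, with the group mean and SD (n = 4) as bars and each vertical axis starting at 0. The post libraries of Gabarapl1 reach 53.2 FPKM against at most 29.8 in the pre libraries. Sqstm1, Bnip3, Ulk1, Bnip3l, Tfeb, Becn1 and Atg14 overlap between pre and post in both diets.

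FPKM summed to between 283575 and 329282 per library, with 305490 to 327559 in CON-pre and 294867 to 303652 in HFD-pre, which do not overlap. The depth relative to the others, as read from the lowest values, ranged from 0.705 to 1.12, and any pair of libraries correlated with r of 0.966 to 0.984 across genes. The labelled tissue matched its markers, as the 11 fast-fibre genes summed to between 75036 and 108255 FPKM and the 8 slow-fibre genes to between 192 and 760, with no fibre marker at 0 in all libraries. Adipocyte, macrophage, blood, endothelial and fibroblast markers each summed to at most 903 FPKM, far below the fast-fibre sum, and the blood and fibroblast sums lay in the range of the slow-fibre sum or above it.

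Gabarapl1, an ATG8 protein of the GABARAP branch, showed the clearest response of the 10 genes. It lies on chromosome 6 from 129533192 to 129542331 in RefSeq GRCm38.p6, the build used here for all positions, and the gene model 1700101I11Rik overlaps it. In CON-pre muscle the 4 values were 23.7, 24.9, 29.8 and 23.9 FPKM, and in CON-post they were 40.3, 35.1, 53.2 and 37.4 FPKM. In HFD-pre muscle they were 25.5, 25.6, 24.5 and 26.0 FPKM, and in HFD-post 26.2, 37.1, 31.1 and 34.4 FPKM. All post values lay above all pre values of the same diet, but HFD-post replicate 1, at 26.2 FPKM, was only just above the highest HFD-pre value. The mean went from 25.6 ± 2.87 to 41.5 ± 8.07 FPKM in CON and from 25.4 ± 0.61 to 32.2 ± 4.67 FPKM in HFD (SD, n = 4).

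On the log2(FPKM + 0.5) scale, used for every fold change here, Gabarapl1 rose by 0.68 (SE 0.122, limma adjusted p = 0.00779) in CON-post against CON-pre. It was the only one of the 10 genes called in this comparison, in which 1.11% of all genes tested were called (0.968% up-regulated). In HFD-post against HFD-pre the estimate was 0.33 (SE 0.122, limma adjusted p = 0.301), which does not pass. Averaged over the diets the rise was 0.50 (SE 0.086, limma adjusted p = 0.00309). The interaction, which asks whether the 2 diets differ in this response, was -0.35 with a 95% interval from -0.72 to 0.016 (unadjusted p = 0.0596, limma adjusted p = 1.00), so a smaller rise in HFD was not shown. With only CON-pre and CON-post in the fit the same difference of 0.68 had an adjusted p of 0.0664, and none of the 10 genes was called.

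The RefSeq promoter entries, 250 bases before and 50 after the transcription start, are shown for Gabarapl1 and Bnip3, so that both windows can be compared. Gabarapl1 had the clearest rise. Bnip3, whose averaged exercise call is close to the threshold, was picked because its window holds a motif match. Capitals mark CACGTG, the E-box core of the CLEAR element that TFEB is known to bind.
Gabarapl1, chr6:129532942-129533241, plus strand: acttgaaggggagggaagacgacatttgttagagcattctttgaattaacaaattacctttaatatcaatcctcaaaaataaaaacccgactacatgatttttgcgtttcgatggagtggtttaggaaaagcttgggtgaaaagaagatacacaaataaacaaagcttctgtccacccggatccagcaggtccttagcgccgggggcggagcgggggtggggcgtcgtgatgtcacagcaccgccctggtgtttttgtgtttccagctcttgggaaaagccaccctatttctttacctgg
Bnip3, chr7:138909457-138909756, minus strand: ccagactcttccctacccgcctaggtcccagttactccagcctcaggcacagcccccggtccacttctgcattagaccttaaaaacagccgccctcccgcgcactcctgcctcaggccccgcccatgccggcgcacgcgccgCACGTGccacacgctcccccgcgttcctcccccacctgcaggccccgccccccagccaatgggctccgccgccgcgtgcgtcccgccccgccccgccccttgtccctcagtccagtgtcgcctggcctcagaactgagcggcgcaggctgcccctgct
The 2 windows differ in composition, with 46.3% G and C and 12 CpG in Gabarapl1 against 71.7% and 27 CpG in Bnip3. Of the 10 genes, 7 had entries in the promoter table, and Map1lc3a, Bnip3l and Becn1 had none. On both strands, CACGTG occurred in the windows of Bnip3, 108 bases before the start, and Atg14, 1 base before it, and in 7.15% of all 32851 promoters (10.1% of those of tested genes). ACGTG, the core of the hypoxia response element, lies within CACGTG and was found at the same 2 places, against 19.6% of all promoters and 25.6% of those of tested genes. The exact letters GTAAACA, 1 spelling of the FoxO site, and TGACGTCA, the cAMP response element, were in none of the windows of the 7 genes. They were in 3.65% and 1.79% of all promoters (2.5% and 3.02% of those of tested genes). Other spellings of these sites were not searched, so their absence from the windows was not shown. These matches describe letters in a window and not bound sites.

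Map1lc3a, which encodes LC3A of the LC3 branch, lies on chromosome 2 from 155276364 to 155278073. Its values were 83.1, 83.5, 94.8 and 104.8 FPKM in CON-pre and 116, 126, 105 and 94.2 FPKM in CON-post. In HFD-pre they were 74.2, 65.0, 74.6 and 86.2 FPKM, and in HFD-post 99.1, 96.5, 104.6 and 95.2 FPKM. The post values lay above all pre values in HFD, while in CON 3 of the 4 post libraries did. The averaged rise was 0.33 (SE 0.071, limma adjusted p = 0.0141), with estimates of 0.27 in CON (adjusted p = 0.295) and 0.40 in HFD (adjusted p = 0.110) that did not pass by themselves. With the ribosomal protein score described further on in the fit, the averaged estimate was 0.16 (limma adjusted p = 0.171).

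Bnip3, a receptor in the outer mitochondrial membrane that is known to be induced by hypoxia, lies on chromosome 7 from 138890836 to 138909506 and overlaps the gene model Gm18258. It was measured at 47.4, 49.7, 53.1 and 65.2 FPKM in CON-pre and at 79.1, 68.6, 67.1 and 59.9 FPKM in CON-post. The HFD-pre values were 46.3, 40.9, 51.3 and 57.7 FPKM and the HFD-post values 81.5, 64.5, 82.8 and 51.6 FPKM. In each diet 3 of the 4 post libraries exceeded all pre libraries, and replicate 4 of each post group lay inside the pre range of its diet. The averaged rise was 0.42 (SE 0.105, limma adjusted p = 0.0324), and the estimates were 0.35 in CON (adjusted p = 0.380) and 0.50 in HFD (adjusted p = 0.181). The call is close to the threshold, because leaving out any 1 of 9 libraries (CON-pre replicates 1, 2 and 3, HFD-pre replicates 1 and 2, CON-post replicates 1 and 3 and HFD-post replicates 1 and 3) moved the adjusted p to between 0.0523 and 0.0746.

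**Figure D2:**
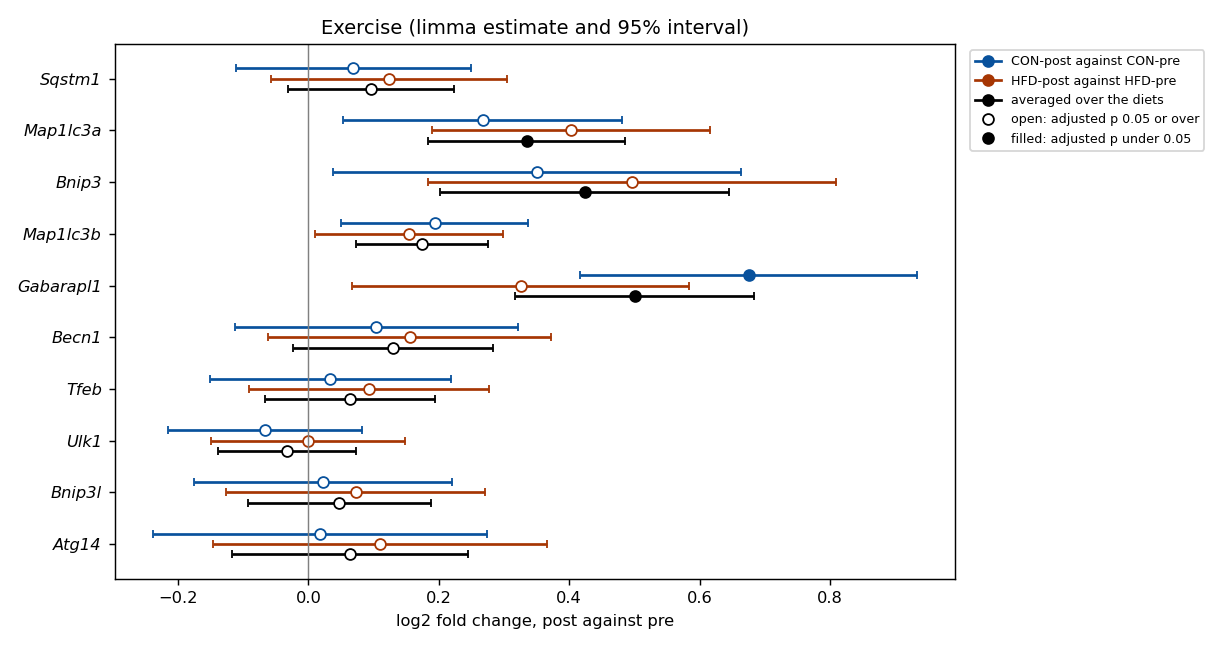
Estimated log2 fold change of post against pre with its 95% interval for each of the 10 genes, in CON (blue), HFD (brown) and averaged over the diets (black), where filled points passed an adjusted p under 0.05. Filled points are Gabarapl1 in CON and Gabarapl1, Map1lc3a and Bnip3 averaged over the diets.

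These 3 calls of 10 compare with 3.86% of all genes tested called for the averaged exercise effect, 2.95% up-regulated. The 10 genes were chosen with earlier results of these data known, so the shares and medians given here do not test the set. The median log2 fold change of the 10 genes was 0.11 against 0.014 over all genes tested. Of the 10 estimates 9 were above 0, against 6047 of 11256 over all genes. In CON the median was 0.086 against -0.0058 over all genes, and in HFD it was 0.14 against 0.035. No gene of the 10 was called in HFD, where 0.542% of all genes were called, but Map1lc3a, Map1lc3b, Gabarapl1 and Bnip3 had an unadjusted p under 0.05, as did 11.7% of all genes. The same 4 genes had an unadjusted p under 0.05 in CON, where this was so for 11.1% of all genes. The values of the 2 groups did not overlap for Map1lc3b and Gabarapl1 in CON and for Map1lc3a and Gabarapl1 in HFD, which was true of 5.82% and 6.81% of all genes.

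Map1lc3b, which encodes LC3B, the ATG8 protein most used as a marker of autophagosomes, lies on chromosome 8 from 121590438 to 121598760 and overlaps Zcchc14. It was at 52.6, 49.7, 55.2 and 55.7 FPKM in CON-pre and at 58.8, 63.7, 61.5 and 60.1 FPKM in CON-post. It was at 55.7, 50.1, 52.0 and 53.4 FPKM in HFD-pre and at 52.9, 63.0, 63.7 and 56.2 FPKM in HFD-post. In CON the groups did not overlap, and over both diets 7 of the 8 post libraries exceeded all 8 pre libraries. The averaged estimate of 0.17 (SE 0.048, limma adjusted p = 0.0543) narrowly missed the threshold. It passed without CON-pre replicate 4 (adjusted p = 0.0464) and without HFD-post replicate 1 (adjusted p = 0.0236), and also with array weights (adjusted p = 0.0259) and median-of-ratios scaling (adjusted p = 0.0361).

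The other ATG8 genes, Gabarap and Gabarapl2, were not called in any comparison. Gabarap was at 79.5 ± 5.91 FPKM in CON-pre and 80.8 ± 13.4 in CON-post, and Gabarapl2 at 13.8 ± 1.57 and 15.4 ± 0.74 (SD, n = 4). In HFD, Gabarap was at 83.0 ± 3.45 before and 84.9 ± 12.3 FPKM after exercise, and Gabarapl2 at 15.5 ± 1.97 and 15.0 ± 0.74. As a description with no test, Gabarapl1 made up 9.69% ± 0.81 of the FPKM summed over the 5 ATG8 genes in CON-pre and 13.4% ± 2.38 in CON-post, against 10.1% ± 0.37 in HFD-pre and 11.1% ± 1.11 in HFD-post. The sum itself was 264 ± 14.2 FPKM in CON-pre, 309 ± 16.0 in CON-post, 252 ± 10.8 in HFD-pre and 290 ± 18.5 in HFD-post.

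Among the receptors, Bnip3l and Sqstm1 had no call in any comparison. Bnip3l, the paralog of Bnip3 on chromosome 14 from 66985238 to 67008877, is the receptor that clears mitochondria from maturing red cells. Its lowest, median and highest values were 10.4, 11.1 and 12.6 FPKM in CON-pre, 10.1, 11.7 and 12.4 in CON-post, 10.2, 10.7 and 12.0 in HFD-pre and 9.94, 11.6 and 13.0 in HFD-post. The groups overlapped throughout, and the averaged exercise estimate was 0.047 with a 95% interval from -0.093 to 0.19. The ratio of Bnip3 to Bnip3l was 4.82 ± 0.95 in CON-pre and 6.07 ± 1.26 in CON-post, and 4.48 ± 0.47 in HFD-pre and 6.14 ± 1.55 in HFD-post (SD, n = 4, not tested).

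Sqstm1, on chromosome 11 from 50200152 to 50210820, ranged from 190 to 225 FPKM in CON-pre and from 201 to 243 in CON-post. It ranged from 185 to 217 FPKM in HFD-pre and from 196 to 245 in HFD-post, so that pre and post overlapped in both diets. The averaged exercise estimate was 0.096 with a 95% interval from -0.031 to 0.22 (limma adjusted p = 0.421).

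The genes of initiation had no call in any comparison. Ulk1, the kinase that starts autophagy, on chromosome 5 from 110784489 to 110810120, was at 20.8, 16.7, 18.2 and 18.5 FPKM in CON-pre, and 16.7, 18.8, 17.8 and 17.3 in CON-post. It was at 16.9, 16.9, 16.2 and 15.0 FPKM in HFD-pre and 15.8, 16.8, 16.4 and 16.0 in HFD-post. It was the only gene of the 10 whose averaged exercise estimate was below 0, at -0.033 with a 95% interval from -0.14 to 0.072. Becn1, the scaffold of the lipid kinase complex, on chromosome 11 from 101288258 to 101302286 and overlapping Cntd1, ranged from 18.4 to 26.5 FPKM over all groups with an averaged estimate of 0.13 (limma adjusted p = 0.360). Atg14, which directs that complex to autophagosome formation, on chromosome 14 from 47540893 to 47568434, ranged from 2.04 to 3.17 FPKM with an estimate of 0.064 (adjusted p = 0.749). Tfeb, the transcription factor, on chromosome 17 from 47737037 to 47792416, ranged from 17.8 to 23.3 FPKM with an estimate of 0.063 and a 95% interval from -0.067 to 0.19 (limma adjusted p = 0.633).

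The diet gave no call among the 10 genes. In HFD-pre against CON-pre, 0.346% of all genes were called but none of the 10, and 2 of the 10 had an unadjusted p under 0.05, against 8.25% of all genes. Map1lc3a was lower by 0.29 (log2 fold change -0.29, SE 0.101, unadjusted p = 0.0117, limma adjusted p = 0.409), with 3 of the 4 HFD-pre libraries below all CON-pre libraries. Ulk1 was at -0.18 (SE 0.070, unadjusted p = 0.0197, limma adjusted p = 0.464), with 2 of 4 libraries below all of CON-pre. The median over the 10 genes was -0.072 against -0.034 over all genes. Estimates were below 0 for 9 of the 10 genes, against 6786 of 11256 over all genes. Gabarapl1, Map1lc3b and Tfeb were near 0, at -0.0033, -0.013 and -0.0092, and changed sign in 5, 7 and 7 of 29 alternatives.

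After exercise, HFD-post against CON-post, none of the 10 was called among 0.151% of all genes. Gabarapl1 alone had an unadjusted p under 0.05, as 6.29% of all genes did, at -0.35 (SE 0.122, unadjusted p = 0.0106, limma adjusted p = 0.507). Of the 4 HFD-post values of Gabarapl1, 3 were below all CON-post values. This comparison shares its HFD-post and CON-post libraries with the exercise comparisons, so it is not separate evidence on Gabarapl1. Averaged over pre and post, 0.959% of all genes were called for the diet and none of the 10. Map1lc3a at -0.22 (SE 0.071, limma adjusted p = 0.215) and Ulk1 at -0.15 (SE 0.050, limma adjusted p = 0.229) had an unadjusted p under 0.05, as did 10.4% of all genes. For Ulk1, 5 of the 8 HFD libraries were below all 8 CON libraries. The other 8 genes had estimates between -0.18 and 0.037.

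**Figure D3:**
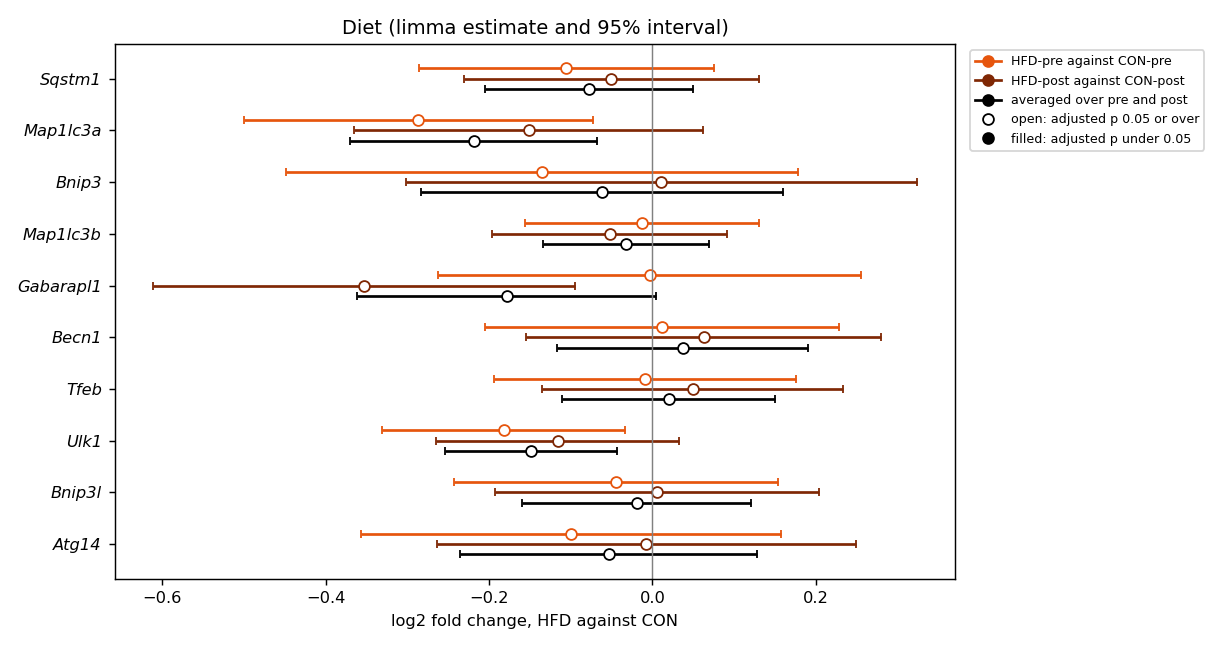
Estimated log2 fold change of HFD against CON with its 95% interval for the 10 genes, in pre muscle (orange), post muscle (brown) and averaged over both (black). All points are open, since no adjusted p was under 0.05, and Map1lc3a and Ulk1 are the genes whose averaged intervals lie below 0.

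Sums and estimates of marker genes also differed with the diet. The 11 fast-fibre genes summed to 97543 to 108255 FPKM in CON-pre and to 85166 to 93694 FPKM in HFD-pre, without overlap, and 10 of the 11 were lower in HFD-pre with none called. All 8 slow-fibre genes had estimates below 0, with a median of -0.54 and none called. In HFD-post against CON-post all 11 fast-fibre and all 8 slow-fibre estimates were below 0. For the averaged diet effect the fast-fibre median was -0.16, and 8 of the 11 were lower at an unadjusted p under 0.05, against 6.54% of all genes, with none called. Of the 7 adipocyte markers, 4 were higher and 3 lower in HFD-pre, with Lep called up and Cfd called down, and their sum was 124 to 201 FPKM in CON-pre and 72.1 to 80.9 in HFD-pre. Cfd alone went from a mean of 105 to 27.4 FPKM, a larger drop than that of the sum. Of the 8 macrophage markers 7 had estimates below 0 in HFD-pre (median -0.25), and all 8 did for the averaged diet effect (median -0.22), while all 6 endothelial markers were above 0 in HFD-pre (median 0.15), with none called. With exercise averaged over the diets, all 8 slow-fibre genes (median 0.16) and all 7 adipocyte genes (median 0.28) had estimates above 0 with none called, and 8 of the 11 fast-fibre genes had estimates below 0. Of all markers, the endothelial gene Pecam1 alone was called for exercise, at 0.36 averaged over the diets (limma adjusted p = 0.00141) and 0.39 in HFD (adjusted p = 0.0347), while 3 of the 6 endothelial estimates were above 0 (median 0.0069). With the slow-fibre score in the fit, Gabarapl1, Map1lc3a and Bnip3 were still called for exercise (limma adjusted p of 0.00441, 0.0178 and 0.0168). The part of the other cell types in the results was not tested.

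For the interaction of diet and exercise, limma called 0 of 11256 genes (0%), and 356 genes (3.16%) had an unadjusted p under 0.05, none of them among the 10. The estimates of the 10 genes ran from -0.35 for Gabarapl1 to 0.15 for Bnip3, with a median of 0.057 against 0.039 over all genes. The intervals are wide, from -0.30 to 0.59 for Bnip3 and from -0.17 to 0.44 for Map1lc3a, and include differences as large as the exercise effect itself.

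The rest of the pathway was examined in 6 lists of 106 genes, of which 104 were tested. The lists were chosen with results of these data known, and none holds any of the 10 genes above. Averaged over the diets, 7 of the 104 rose after exercise against 3.86% of all genes called, none fell, and most genes of each list did not pass. In autophagosome formation, such as the partners of ULK1 and the ATG9 and WIPI proteins, 0 of 19 were called (2 at an unadjusted p under 0.05, which 18.5% of all genes had), with a median of 0.026. In ATG8 conjugation, the enzymes that attach ATG8 proteins to lipid together with Gabarap and Gabarapl2, 0 of 13 were called (4 at an unadjusted p under 0.05, all lower, against 6.8% of all genes), with a median of -0.020. In the other 4 lists an unadjusted p under 0.05 was found for 5 of 16 cargo receptor and mitophagy genes, 6 of 25 genes of the lysosome and of fusion, 9 of 24 of mTORC1 and nutrient control and 4 of 7 transcription factors.

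Of the cargo receptor and mitophagy genes, 2 of 16 rose averaged over the diets, against 3.86% of all genes called. Optn, the ubiquitin-binding receptor optineurin, rose by 0.41 (SE 0.068, limma adjusted p = 0.00213), and Pink1, the kinase that marks damaged mitochondria, by 0.23 (SE 0.059, limma adjusted p = 0.0398). Optn was also called in CON-post against CON-pre, at 0.56 (limma adjusted p = 0.00518), and was the only gene of the 6 lists called in a comparison within 1 diet. Its level was 24.2 ± 1.96 FPKM in CON-pre and 35.9 ± 1.95 in CON-post, and 26.0 ± 2.55 in HFD-pre and 31.2 ± 4.07 in HFD-post (SD, n = 4). As for Gabarapl1, the CON groups did not overlap, at 22.2 to 26.0 and 33.5 to 38.2 FPKM, where 1.11% of all genes were called and 5.82% did not overlap.

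Transcription factors and nutrient control gave the other calls. Foxo3 rose by 0.48 (SE 0.095, limma adjusted p = 0.00895) and Foxo1 by 0.70 (SE 0.186, limma adjusted p = 0.0487), so that 2 of the 7 transcription factors passed against 3.86% of all genes, with a median of 0.17. The call of Foxo1 held in only 7 of 28 alternatives. Foxo3 went from 2.97 ± 0.52 to 4.05 ± 0.76 FPKM in CON and from 2.83 ± 0.37 to 4.43 ± 0.60 in HFD. In mTORC1 and nutrient control, 2 of 24 rose, with a median of 0.041. They were Fnip1, a partner of folliculin, by 0.48 (limma adjusted p = 0.00968), and Sesn1, a sestrin that restrains mTORC1, by 0.40 (limma adjusted p = 0.0399). Of the 25 genes of the lysosome and of fusion, Atp6v1h, a subunit of the proton pump, alone passed, at 0.41 (limma adjusted p = 0.0448), a share near the 3.86% over all genes, and the median was 0.047.

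**Figure D4:**
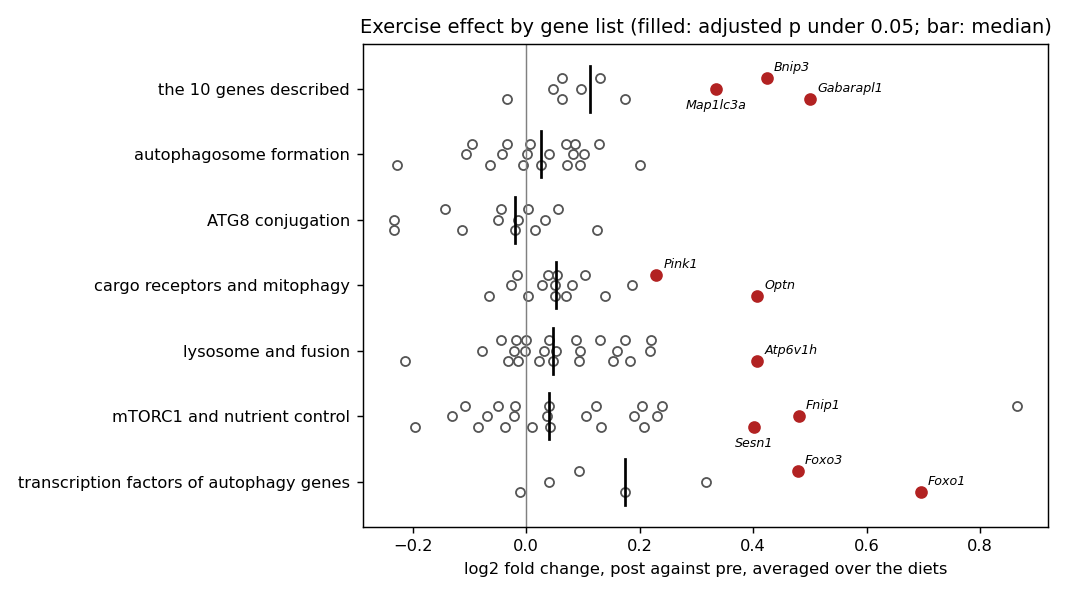
Log2 fold change of post against pre, averaged over the diets, for each tested gene of the 10 genes described and of the 6 lists, with filled points for an adjusted p under 0.05 and a bar at each list's median. The medians of the lists lie between -0.020 and 0.17, and the called genes all lie to the right of 0. The open point farthest right is Ddit4, named after its value was seen, at 0.87 (limma adjusted p = 0.265).

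Of the 28 alternative settings, Optn kept its averaged call in all, Fnip1 and Foxo3 in 27, Atp6v1h in 13, and Pink1 and Sesn1 in 11. No gene of the 6 lists was called for the diet, for the interaction or for HFD-post against HFD-pre. The median farthest from 0 in HFD-pre against CON-pre was in the lysosomal list, where 22 of 25 estimates were below 0, with a median of -0.12 against 6786 of 11256 and -0.034 over all genes, 3 genes at an unadjusted p under 0.05 (8.25% of all genes) and none called. In HFD-post against HFD-pre 23 of these 25 estimates were above 0, with a median of 0.10, against 6671 of 11256 and 0.035 over all genes. Both comparisons share the HFD-pre libraries.

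Map1lc3a and Bnip3 were the most alike of the 3 called genes. Over the 16 libraries, as a description, log2 values of Map1lc3a and Bnip3 correlated with r = 0.83, and of Gabarapl1 with r = 0.59 and 0.46 with these. After removing group means the values were 0.73, -0.13 and -0.27. Among the genes most like Map1lc3a were Map2k3 (r = 0.94), Rpl14 (0.91), Pex16 (0.91) and Rpl5 (0.89), and Rpl14 and Rpl5 encode ribosomal proteins. Those most like Bnip3 were Rps6 (r = 0.92), St3gal5 (0.91), Zfand5 (0.91), Rpl14 (0.90) and Map2k3 (0.89). Those most like Gabarapl1 were the heat shock genes Hspa1a (r = 0.94) and Hspa1b (0.93), then Arid5b, Impact and Midn (0.92 each). The 16 libraries share the groups and the exercise effect, and so the correlations hold group differences too.

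A score over 81 ribosomal protein genes, the mean of their centred log2 values, was added after seeing these genes. It correlated with Map1lc3a at r = 0.87 (0.92 after removing group means), with Bnip3 at 0.84 (0.75), with Becn1 at 0.71 (0.67) and with Gabarapl1 at 0.32 (-0.22). The score had medians of -0.022 in CON-pre, 0.099 in CON-post, -0.19 in HFD-pre and 0.17 in HFD-post, and 71 of the 81 genes had averaged exercise estimates above 0, with a median of 0.20 and 2 called. With the score in the fit, Gabarapl1 was still called for the averaged exercise effect at 0.55 (limma adjusted p = 0.0168), while Map1lc3a at 0.16 (adjusted p = 0.171) and Bnip3 at 0.21 (adjusted p = 0.446) were not. Calls over all genes went from 435 to 109 in that fit. Of the 7 list genes, Optn alone was still called (adjusted p = 0.0155). The score itself was higher after exercise, and its part in these results was not tested.

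**Figure D5:**
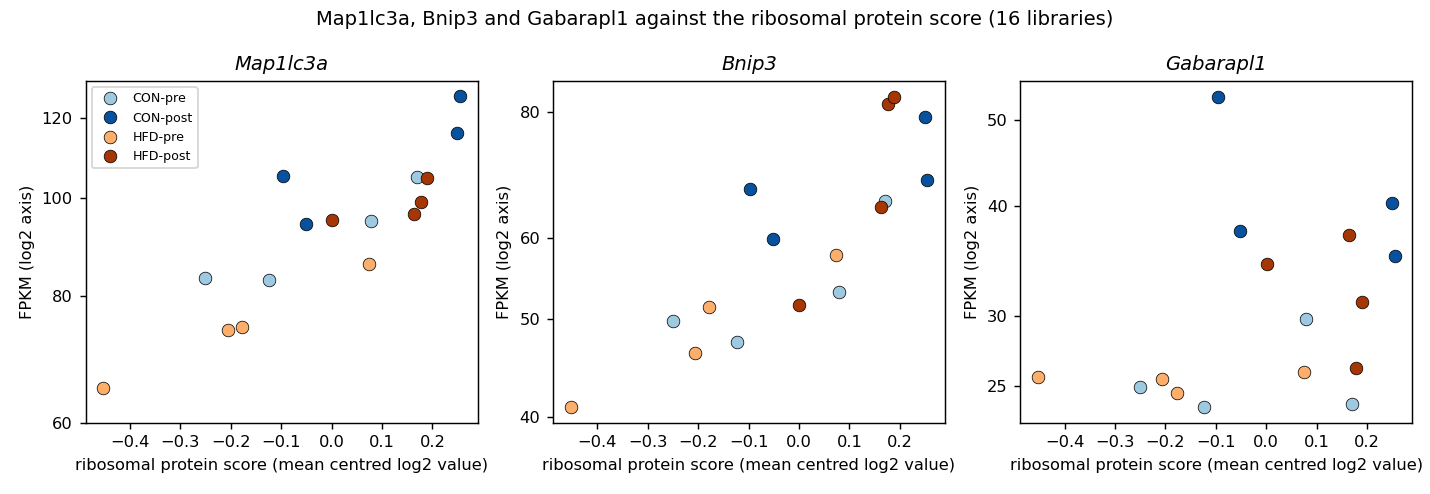
FPKM of Map1lc3a, Bnip3 and Gabarapl1 (log2 axes) against the ribosomal protein score of the same library, for the 16 libraries coloured by group. Map1lc3a and Bnip3 are higher in libraries with a higher score (r = 0.87 and 0.84), while for Gabarapl1 (r = 0.32) 7 of the 8 post libraries lie above all pre libraries.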

How the data were processed

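Total RNA of quadriceps was made into TruSeq stranded mRNA libraries and sequenced on an Illumina HiSeq. Per the methods, the authors aligned reads to mm9 with TopHat and quantified genes with Cufflinks; the versions, the annotation and the use of strand are not given in the sources used here. The deposited unit is FPKM (scaled by transcript length and mapped fragments) in 1 table of 24487 entries for all 16 libraries. Of these, 27 entries with names turned into dates or numbers (0.0771% of the FPKM) were left out. The 260 symbols in several entries, none of the 10 genes, were summed, which left 23970. No read counts were used, so the counting error behind a value is unknown, and depth was read only as relative to the other libraries, from values of at most 0.5 FPKM.

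Values were tested as log2(FPKM + 0.5) by limma 3.58.1 (R 4.3.3, trended variance). A single model held the 4 groups and the 11256 symbols with a mean of at least 0.5 FPKM, with Benjamini-Hochberg adjustment over all of them. The pseudocount makes fold changes of low genes smaller. Averaged effects are means of both diets or both times. The 10 genes and the lists were chosen with earlier results of these data known. Named by rule besides the 10 were pathway list genes that were called (at most 5 by adjusted p per list and comparison), and the 5 genes of highest r with a called gene, of which 1 is not reported here. Gabarap, Gabarapl2, Ddit4 and the called markers Lep, Cfd and Pecam1 were named in addition, after their values were seen. The ribosomal protein score and the slow-fibre score were added as covariates after seeing the data. The fit was tested on simulated data. Promoters are RefSeq entries of GRCm38.p6, another build than the authors used, for which the table gives no positions. Alternatives were other pseudocounts, filters, scalings, weights, a replicate block, the 2 groups alone and leaving out each library.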

Additional observations from a re-analysis of the deposited data

How the results depend on the processing

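Of the 3 genes called for the averaged exercise effect, Gabarapl1 kept its call in all 28 alternatives (log2 fold change 0.44 to 0.55), Map1lc3a in 27 and Bnip3 in 13, with no change of sign. The exception for Map1lc3a was the ribosomal protein score as a covariate, which left 1 of the 10 genes called in place of 3. That score was itself higher after exercise, and the cause of the lost calls was not tested. Bnip3 also lost its call under median-of-ratios, upper-quartile and quantile scaling (adjusted p of 0.0536, 0.0576 and 0.0654) and without a filter (0.0646), with log2 fold changes of 0.41, 0.39, 0.35 and 0.42. With only CON-pre and CON-post fitted, 0 of the 10 genes were called in place of 1. That fit held fewer libraries and its own estimate of the spread, and the cause was not tested. Among the estimates printed above, the ribosomal protein score turned the averaged exercise estimate of Atg14 to -0.0039 and the interaction estimates of Map1lc3a and Bnip3 to -0.021 and -0.052, none of them called. Among estimates shown only in the plots or not shown, it also turned others, such as Becn1 in HFD-post against HFD-pre (0.16 to -0.027) and Bnip3 in HFD-pre against CON-pre (-0.13 to 0.021).

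The replicate numbers were not treated as pairs. Deviations of same-numbered libraries correlated with r of -0.22 to 0.21, with a median of -0.022 against 0.016 for differently numbered libraries. Of the 24 same-numbered pairs, 5 were over 0.1. Whether same-numbered mice shared a cage or a day was not tested. With a replicate block, Gabarapl1 and Map1lc3a were still called for the averaged exercise effect and Bnip3 was not (log2 fold change 0.42, adjusted p = 0.0571), which left 2 of the 10, and calls over all genes went from 435 to 328.

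Calls over all genes for the averaged exercise effect lay between 109 (ribosomal protein score) and 591 (array weights), with 246 when CON-pre replicate 1 was left out, and 279 and 289 when replicate 2 or replicate 1 of HFD-pre was. For HFD-post against HFD-pre, 61 calls went to 21 when replicate 2 of either group was left out, 24 without HFD-post replicate 3, 26 without HFD-pre replicate 1 and 9 with the ribosomal protein score. For HFD-post against CON-post, 17 went to 2 with the 2 groups alone, 5 without CON-post replicate 2 and 33 with the slow-fibre score, and for HFD-pre against CON-pre, 39 went to between 21 and 63. CON-post against CON-pre went from 125 to 72 with the 2 groups alone, and the averaged diet effect from 108 to 193 with the slow-fibre score. For the averaged exercise effect 332 of 435 calls were up-regulated, against 284 of 497 under upper-quartile, 309 of 485 under median-of-ratios and 289 of 533 under quantile scaling. No scaling moved the median over all genes by more than 0.050 on the log2 scale. Of the 70 estimates over the 10 genes and 7 comparisons, 25 changed sign under some alternative, and all 25 were uncalled and between -0.13 and 0.16. No read counts were used, so what depth limits is unknown.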
